A study of Homo sapiens with 2 samples.

Results

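The cytosolic nucleic acid sensing genes were followed in the RNA of U2OS cells, an established human osteosarcoma line. They were 10 genes taken by name from the deposited expression table, and 9 of them were listed among its 18141 distinct symbols: CGAS, STING1, TBK1, IRF3, IFI16, SAMHD1, MAVS, IFIH1 and RIGI, the last under its older symbol DDX58. TREX1 was not listed. The cells grew asynchronously and received aphidicolin, an inhibitor of the replicative DNA polymerases, at 0.3 µM for 18 h, and 2 libraries of polyadenylated RNA were made from them. Each library is a replicate of the same treated group, and no label gives them separate cultures, which means that the spread printed here may be technical. An untreated library was not analysed here, so every value is a level in treated cells and none is a response to the drug.

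The cGAS enzyme binds double-stranded DNA in the cytosol and makes the messenger cGAMP, which binds STING on the endoplasmic reticulum. STING then recruits the kinase TBK1, which phosphorylates the transcription factor IRF3 and so turns on interferon genes. RNA is sensed by the helicases RIG-I and MDA5, which act through MAVS on mitochondria and meet the DNA branch at TBK1. Nucleases and related enzymes such as TREX1 and SAMHD1 limit the nucleic acid that could set off these sensors. The pathway is studied in replication stress because damaged chromosomes can leave micronuclei and DNA fragments outside the nucleus. U2OS cells keep their telomeres by recombination without telomerase, and lines of that kind have been described as weak in their response to cytosolic DNA.

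Before the levels, the DNA just before 3 of the gene starts is shown. These 3 windows are printed because they held the letters searched for below, so their matches are not a separate result. IFI16, RIGI and IFIH1 are sensors whose genes are themselves known to be induced by interferon. Whether the other genes of the set are so induced is not considered here, so no link of match and induction is drawn. The RefSeq promoter table (GRCh38.p14) held 7 of the 10 genes, TBK1, TREX1, IFI16, SAMHD1, MAVS, RIGI and IFIH1, with 8 windows in all because IFI16 had 2 starts. CGAS, STING1 and IRF3 were not in it. The 250 bases before each start were searched on both strands for the letters GAAANNGAAA and GAAANGAAA, the repeated GAAA that interferon regulatory factors bind, and the capitals below mark every match. The windows are chr1:159009657-159009906 on the plus strand for the second IFI16 start, chr9:32526197-32526446 on the minus strand for RIGI and chr2:162318685-162318934 on the minus strand for IFIH1.
IFI16: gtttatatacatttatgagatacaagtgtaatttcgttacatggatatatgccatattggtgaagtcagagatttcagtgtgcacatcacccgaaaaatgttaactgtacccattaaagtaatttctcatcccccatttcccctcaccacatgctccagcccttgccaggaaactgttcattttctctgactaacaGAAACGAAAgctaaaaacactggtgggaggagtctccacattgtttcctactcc
RIGI: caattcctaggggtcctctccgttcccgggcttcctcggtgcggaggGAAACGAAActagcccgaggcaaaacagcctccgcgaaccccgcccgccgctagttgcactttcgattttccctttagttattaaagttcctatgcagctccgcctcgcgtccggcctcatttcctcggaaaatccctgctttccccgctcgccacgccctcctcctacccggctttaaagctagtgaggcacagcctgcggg
IFIH1: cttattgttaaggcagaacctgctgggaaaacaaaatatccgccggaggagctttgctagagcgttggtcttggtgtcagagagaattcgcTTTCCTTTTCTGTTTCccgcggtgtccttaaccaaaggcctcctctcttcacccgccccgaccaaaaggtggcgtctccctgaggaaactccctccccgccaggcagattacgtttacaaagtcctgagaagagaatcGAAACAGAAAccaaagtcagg

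The IFI16 and RIGI windows each held GAAACGAAA, beginning at base -54 and at base -203 from the start. The IFIH1 window held GAAACAGAAA at base -21 and a pair of overlapping matches on the other strand, at bases -159 and -153. These starts are RefSeq's and differ from the GENCODE gene positions given further on. By those positions both IFI16 windows lie inside the gene, and the windows of all the other genes partly overlap theirs. The overlap is nearly whole for TBK1, with a window of 64451870 to 64452119 and a gene start of 64451880. Most of the SAMHD1 window also lies inside its gene. The motif and CpG counts here are thus not all of sequence upstream of the GENCODE genes. The windows of MAVS, TBK1, SAMHD1 and TREX1 and the other IFI16 window held neither form, which says only that those letters were not in those 250 bases. Of all 35116 RefSeq windows of this length 5.48% held either form. Of the 23 windows of the interferon and interferon target genes described further on, 21 held either form. A match of letters is a description and not a binding site. CpG dinucleotides numbered 28 in the MAVS window, 27 in TBK1, 22 in RIGI, 14 in SAMHD1, 12 in IFIH1 and 3 in TREX1, and 0 and 3 in the windows of the first and second IFI16 starts. The median over all windows was 11, with quartiles of 3 and 23. The windows of MAVS and TBK1 thus lay above the upper quartile, and those of IFI16 and TREX1 at or below the lower one. DNA methylation was not measured.

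**Figure D1:**
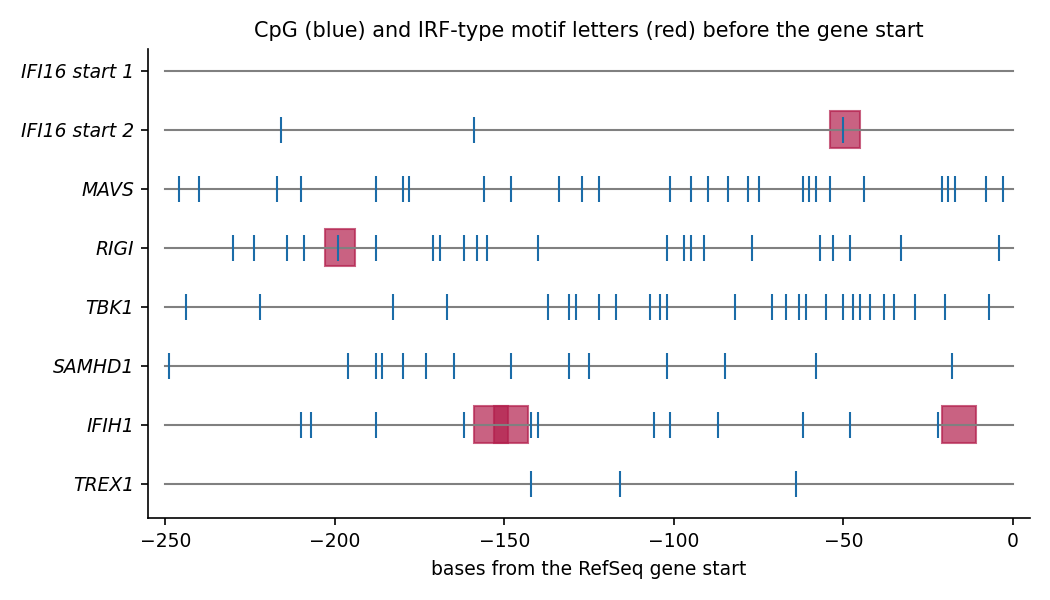
Position of CpG dinucleotides (blue ticks) and of GAAANNGAAA or GAAANGAAA matches on either strand (red boxes) in the 250 bases before each RefSeq start, with bases from the start on the horizontal axis. Matches are seen in RIGI, IFIH1 and the second start of IFI16, and the MAVS and TBK1 windows hold the most CpG.

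All 9 listed sensing genes were transcribed at 1 RPKM or more in both libraries, RPKM being reads per kilobase of exon scaled to the reads of the library, a level that 66.7% of all 17912 listed entries reached. Among listed protein-coding entries alone, 72.9% reached it. The count was also 9 at 0.5 RPKM, 1 CPM (reads scaled to the library without division by length) and 1 TPM (RPKM rescaled to a common total), levels that 73.9%, 78.1% and 81.6% of entries reached. It was 6 at 5 RPKM, which 42.8% of entries reached. Their levels spanned 10.02-fold, with the DNA-binding protein gene IFI16 at the top and the MDA5 gene IFIH1 at the bottom. Their median was 7.06 RPKM, against 3.53 RPKM over all listed entries and 4.83 RPKM over listed protein-coding genes. The genes were chosen with earlier results of these data known, so this count is a description.

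Among the DNA sensors, CGAS, which encodes the cGAMP synthase (chromosome 6, 73413515 to 73452276, minus strand; GENCODE release 29 on GRCh38 for this and the following positions), had 343 reads in the first library and 281 in the second, or 6.21 and 5.17 RPKM. The mean was 5.69 ± 0.737 RPKM (SD, n = 2, as for every mean ± SD here), and its coefficient of variation of 12.9% was the largest of the 9 genes. IFI16, a DNA-binding protein of the PYHIN family that cooperates with the STING route (chromosome 1, 158999968 to 159055155, plus strand), had 29.3 and 29.6 RPKM, from 2055 and 2040 reads. Its mean of 29.5 ± 0.177 RPKM was 5.18 times that of CGAS and stood at percentile 91.1 of all listed entries. The libraries agreed closely for IFI16 and less closely for CGAS, and the ranges of these genes did not overlap.

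IFI16 was high while the PYHIN genes beside it were hardly seen or not listed. AIM2, a PYHIN gene that starts an inflammasome on cytosolic DNA and is the next protein-coding gene on chromosome 1, had 1 read in each library, or 0.0403 and 0.0410 RPKM. PYHIN1 and MNDA, on the other side of IFI16, were not listed. A gene that is not listed is not a measured 0, since the table holds no value at 0.

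The adaptor gene STING1 (chromosome 5, 139475534 to 139482935, minus strand) had 3.97 and 3.52 RPKM, a mean of 3.75 ± 0.317. Reads were recovered from the RPKM up to a whole factor, and for STING1 alone among the 9 genes that factor was ambiguous: the values fit 252 and 220 reads on 4798 bases of exon, or 126 and 110 reads on 2399 bases. The annotated exonic length of 3850 bases lies between them and nearer the first. CGAS was 1.56 times STING1 in replicate 1 and 1.47 times STING1 in replicate 2. This order depended on the length that the reads are divided by. With the length of the longest coding transcript in place of the full exonic length, a setting chosen after the data were seen, STING1 averaged 10.1 RPKM and CGAS 7.47 RPKM. The smaller pair of STING1 reads would bring the STING1 value under that setting below the CGAS one.

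MAVS, the mitochondrial adaptor of the RNA branch (chromosome 20, 3846799 to 3876123, plus strand), had 11.9 and 12.2 RPKM, from 1848 and 1876 reads. Its mean of 12.1 ± 0.263 RPKM was the third highest. Of the sensors that feed it, RIGI, whose helicase binds short RNA with a triphosphate end (chromosome 9, 32455705 to 32526324, minus strand), had 8.06 and 8.29 RPKM from 495 and 501 reads. IFIH1, whose helicase MDA5 binds long double-stranded RNA (chromosome 2, 162267079 to 162318703, minus strand), had 2.75 and 3.14 RPKM from 185 and 208 reads. RIGI was therefore 2.94 times IFIH1 in replicate 1 and 2.64 times in replicate 2, and their ranges were far apart. The means were 8.18 ± 0.161 RPKM for RIGI and 2.94 ± 0.276 RPKM for IFIH1. DHX58, which encodes LGP2, the third helicase of this family, had 8 and 13 reads, or 0.158 and 0.261 RPKM. The family thus ran from RIGI down to DHX58 in each library.

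TBK1, the kinase on which both branches meet (chromosome 12, 64451880 to 64502108, plus strand), gave 7.04 and 7.09 RPKM from 594 and 589 reads, the smallest relative spread of the 9 genes at 0.521%. IRF3, its substrate and the transcription factor that drives interferon genes (chromosome 19, 49659569 to 49665875, minus strand), gave 13.1 and 13.8 RPKM from 657 and 680 reads. IRF3 was above TBK1 in each library. The means were 7.06 ± 0.0368 RPKM for TBK1 and 13.4 ± 0.477 RPKM for IRF3. Of the exonic bases of IRF3 19.3% are shared with BCL2L12, a gene on the opposite strand, and of those of TBK1 14.7% with an antisense transcript. How the authors' counting used strand is not given in the sources used here, so reads of such partners may not be told apart.

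SAMHD1, a dNTP hydrolase that keeps nucleotides low and acts at stalled forks (chromosome 20, 36889773 to 36951901, minus strand), had 4.30 and 4.01 RPKM from 641 and 588 reads, a mean of 4.16 ± 0.207. Its exonic length of 11261 bases was more than that of its longest coding transcript of 5298 bases, so its RPKM would be 8.84 with the shorter length. TREX1, the main cytosolic DNA exonuclease (chromosome 3, 48465811 to 48467645, plus strand), was not listed. All of its annotated exonic bases lie in exons of ATRIP, which encodes the partner of the ATR kinase. ATRIP and the read-through symbol ATRIP-TREX1 were listed with the same values, 4.86 and 4.91 RPKM from 349 and 347 reads, on the exonic length of ATRIP. How reads on shared exons were counted is not given in the sources used here. Whether the ATRIP value holds reads from TREX1 therefore cannot be told. The locus was described after its values were seen.

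**Figure D2:**
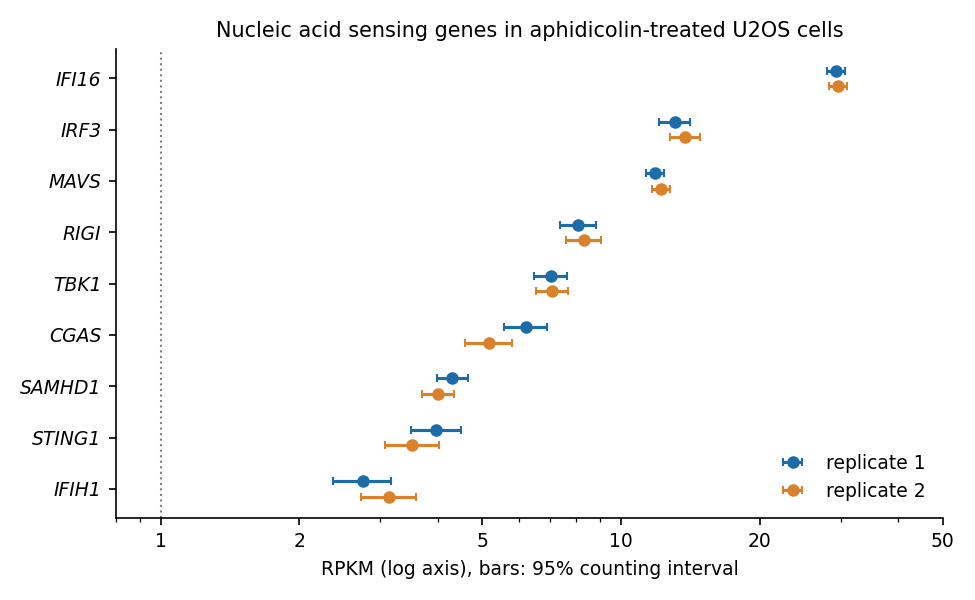
RPKM of the 9 listed sensing genes in replicate 1 (blue) and replicate 2 (orange) on a log axis, with 95% exact Poisson intervals of the recovered reads. IFI16 sits at 29.3 and 29.6 RPKM, IFIH1 at 2.75 and 3.14 RPKM, and the dotted line marks 1 RPKM; the STING1 bars take the larger read counts.

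By mean RPKM the order was IFI16, IRF3, MAVS, RIGI, TBK1, CGAS, SAMHD1, STING1 and IFIH1. In 7 of the 8 neighbouring pairs the ranges of the libraries and the 95% exact Poisson intervals of the summed reads did not overlap. These intervals cover counting error only. The exception was SAMHD1 and STING1, with intervals of 3.93 to 4.40 RPKM and 3.42 to 4.10 RPKM. With the smaller STING1 reads its interval would be 3.28 to 4.26 RPKM, still above the upper bound of 3.24 RPKM for IFIH1. No permutation test was run on these pairs. Both genes of a pair were measured in the same 2 libraries. Even with that pairing ignored, 2 values against 2 cannot give an exact 2-sided p below 0.333.

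The order changed when levels were not divided by length, that is, in CPM. MAVS then averaged 142 CPM and stood next to IFI16 at 156 CPM, and SAMHD1 at 46.8 CPM came level with TBK1 at 45.1 CPM, with overlapping ranges. MAVS and SAMHD1 have the longest exonic lengths of the 9 genes, at 11771 and 11261 bases, and CPM is not comparable between genes of different length. Dividing by the longest coding transcript kept IFI16 first at 54.4 RPKM, IRF3 next at 29.3 RPKM and IFIH1 last at 4.17 RPKM. The order between them changed. TBK1 at 13.8 RPKM passed MAVS at 12.1 RPKM. STING1 at 10.1 RPKM, with its larger read counts, came above SAMHD1 at 8.84, RIGI at 8.72 and CGAS at 7.47 RPKM. The counting intervals of STING1 and SAMHD1 overlapped.

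Among all listed entries the 9 genes ran from percentile 46.7 for IFIH1 to percentile 91.1 for IFI16. IRF3 stood at percentile 78.3, MAVS at 75.9, RIGI at 67.0, TBK1 at 63.9 and CGAS at 59.1. SAMHD1 at 52.7 and STING1 at 51.0 were near the middle, and among listed protein-coding genes alone they lay below it, at 46.7 and 44.9. By mean level IFIH1 was the one sensing gene below the median of all entries, 3.53 RPKM. STING1 could not be told from that median, which lay inside its counting interval of 3.42 to 4.10 RPKM, and in replicate 2 both were at 3.52 RPKM.

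**Figure D3:**
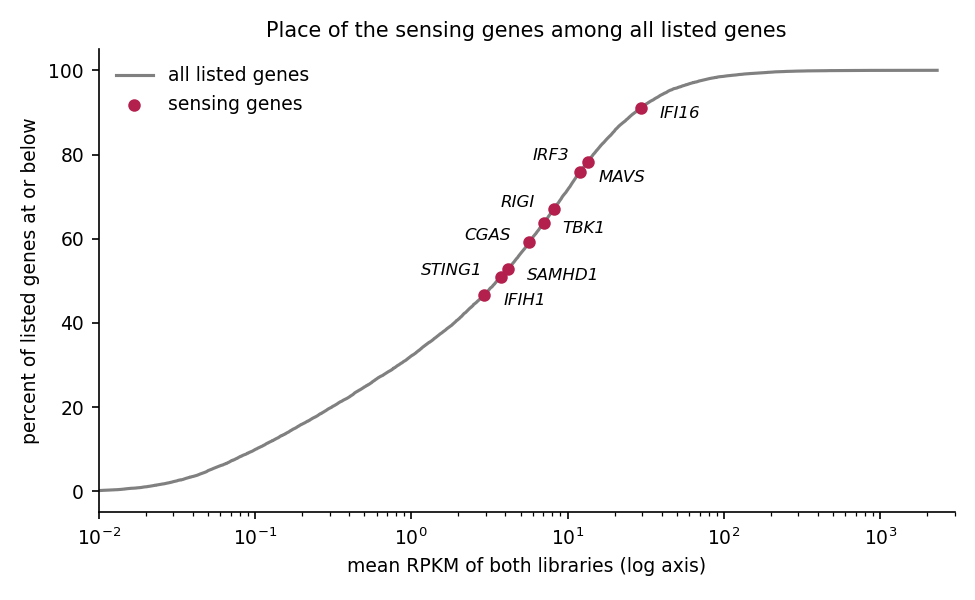
Share of listed entries at or below each level (vertical axis, percent) against mean RPKM of both libraries (log axis), with the 9 sensing genes marked. The genes lie between percentile 46.7 (IFIH1) and percentile 91.1 (IFI16).

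None of the 9 genes was called different between the libraries. The comparison used a 2-sided exact binomial test on the recovered reads of all 11944 expressed entries with Benjamini-Hochberg adjustment, which sets library against library and no condition against another. It called 206 entries, or 1.72%, of which 127 (1.06% of those tested) were higher in replicate 2 and 79 (0.661%) in replicate 1. CGAS had the largest ratio, a log2 of replicate 2 over replicate 1 of -0.26 ± 0.12 (counting SE), with an exact p of 0.0276 and an adjusted p of 0.328. It was the only sensing gene with an unadjusted p under 0.05, and 12.0% of all tested entries had one. Over the other error model, scaling and filter the adjusted p of CGAS ran from 0.306 to 1. STING1 had a log2 ratio of -0.17 ± 0.13 and SAMHD1 one of -0.09 ± 0.08. IFIH1 had 0.20 ± 0.15, and the other 5 genes lay between 0.02 (IFI16 and TBK1) and 0.08 (IRF3). In all, 6 genes were nominally higher in replicate 2 and 3 in replicate 1.

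**Figure D4:**
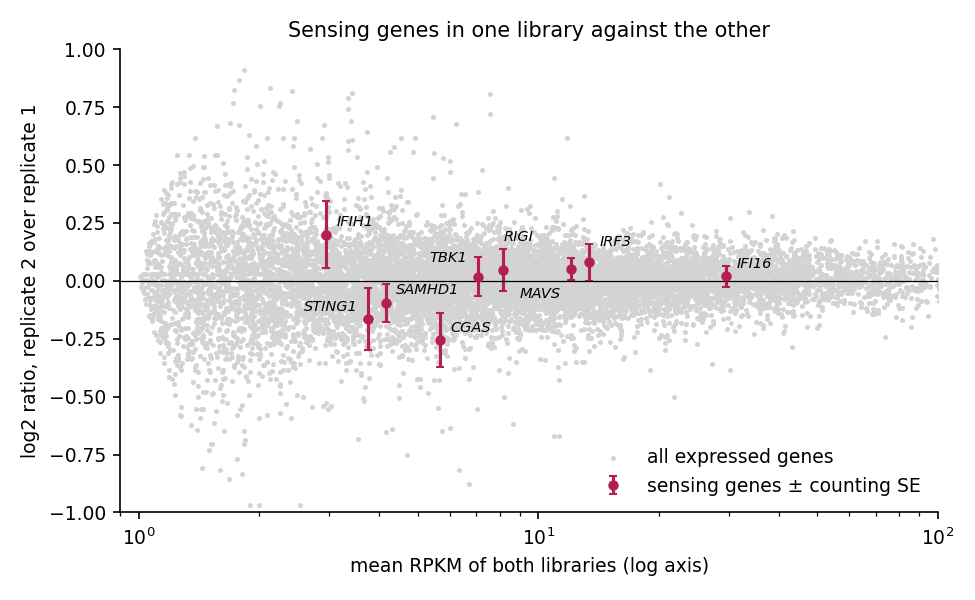
Log2 ratio of replicate 2 over replicate 1 (recovered reads, trimmed mean of M values scaling) against mean RPKM (log axis) for expressed entries (grey) and the 9 sensing genes with their counting SE (red); grey points outside the axes are not drawn. The sensing genes lie within the grey cloud, from -0.26 for CGAS to 0.20 for IFIH1.

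The wider pathway was described with 7 lists of 101 genes in all, of which 93 were listed and 78 reached 1 RPKM in both libraries. Of all listed entries 66.7% reached that level, and of listed protein-coding entries 72.9%. These shares are the background for each list count below. Of the 11 listed partners of DNA sensing 10 passed, and the list median was 13.1 RPKM. They were led by the Ku subunits, DNA end-binding proteins of break repair, XRCC6 at 178 ± 3.22 RPKM and XRCC5 at 149 ± 1.46 RPKM. PRKDC, the kinase that Ku recruits, followed at 52.8 ± 1.82 RPKM. AIM2 was the listed gene below the level, and the Z-form nucleic acid sensor gene ZBP1 was not listed, like PYHIN1 and MNDA. PRKDC was called different between the libraries, with 10497 and 10849 reads. Its log2 ratio was 0.08 ± 0.02 with an adjusted p of 0.00865 (exact binomial test). With an error model that allows variation beyond counting, the adjusted p was 1.

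Genes of STING trafficking and turnover passed in all 15 cases, with a median of 10.4 RPKM. SURF4, a cargo receptor that returns STING to the endoplasmic reticulum, stood at 99.9 ± 0.0388 RPKM, and the coat subunit gene COPA, which acts in the same retrieval, at 44.5 ± 0.343 RPKM. RNF5, a ubiquitin ligase that marks STING for degradation, was at 39.0 ± 2.01 RPKM. A processed pseudogene of RNF5 is known, and whether the counting split reads between them was not tested. RHBDF2, which helps STING leave the endoplasmic reticulum, was the lowest at 5.01 ± 0.476 RPKM. Every gene of this list was thus above the STING1 value of 3.75 RPKM. With the longest coding transcript as length STING1 averaged 10.1 RPKM, and the list was not recomputed under that setting.

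Nucleases and other brakes of DNA sensing passed in 10 of 12 cases, with a median of 6.25 RPKM. BANF1, a chromatin protein that keeps cGAS off nuclear DNA, was at 75.3 ± 3.30 RPKM, the lysosomal nuclease gene DNASE2 at 15.2 ± 0.801 RPKM and the phosphatase gene PPP6C at 14.8 ± 0.844 RPKM. NLRC3 was lowest with 5 and 10 reads, or 0.0565 and 0.115 RPKM. The other gene below the level was RNASEH2A, the catalytic subunit of RNase H2, with 26 and 21 reads, or 0.539 and 0.442 RPKM. Of its annotated exonic bases 30.8% are shared with another gene. The accessory subunit genes RNASEH2B and RNASEH2C averaged 1.53 ± 0.0437 RPKM and 7.76 ± 0.283 RPKM, the last with 28.2% of its exonic bases shared. The RNase H2 subunits were named after their values were seen.

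Partners of RNA sensing passed in 14 of 16 cases, with a median of 9.63 RPKM. The RNA helicase gene DHX9 led at 67.3 ± 0.762 RPKM, followed by ADAR, whose enzyme edits double-stranded RNA and so hides it from MDA5, at 39.4 ± 1.06 RPKM, and the helicase gene DDX3X at 26.0 ± 0.603 RPKM. DHX58 and the oligoadenylate synthetase gene OAS2, at 0.772 ± 0.0172 RPKM, were below the level. ADAR thus stood well above IFIH1 in each library.

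Kinases, adaptors and transcription factors passed in 15 of 17 cases, with a median of 6.33 RPKM. RELA, a subunit of NF-kB, led at 29.99 ± 0.345 RPKM, followed by the autophagy receptor gene OPTN at 20.02 ± 0.00671 RPKM and the kinase gene CHUK at 10.4 ± 0.218 RPKM. IKBKE, the kinase most like TBK1, had 4.49 and 4.36 RPKM and was below TBK1 in each library. IRF7, the factor that amplifies the interferon response, was lowest with 1 read in each library, or 0.0289 and 0.0294 RPKM, and IRF5 was the other gene below the level. IRF3, from the same gene family, was thus at 13.4 RPKM while IRF7 rested on 1 read a library.

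Genes of the type I interferon receptor route passed in 7 of 9 cases, with a median of 12.4 RPKM. The receptor chain gene IFNAR1 stood at 17.2 ± 0.0753 RPKM and the kinase gene JAK1 at 15.6 ± 0.602 RPKM. The other receptor chain, IFNAR2, was lowest with 30 and 37 reads, or 0.492 and 0.616 RPKM, and IRF9, a DNA-binding factor of the route, was at 0.957 ± 0.0107 RPKM. Of the exonic bases of IFNAR2 83.2% are shared with another gene, and of those of IRF9 48.4%. The part of this sharing in the low values was not tested.

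Interferon genes and their targets were the lowest of the 7 lists by median, at 2.06 RPKM, and 7 of the 13 listed genes reached 1 RPKM in both libraries. IFNB1, IFNA1, IFNL1, IFNL2 and IFNL3, the interferon genes of the list, were not listed. The targets were led by IFI44 at 31.7 ± 1.20 RPKM, IFI6 at 30.2 ± 5.81 RPKM and ISG15, a ubiquitin-like modifier, at 24.3 ± 2.34 RPKM. The chemokine gene CXCL10 was lowest with 2 reads and 1 read, or 0.129 and 0.0654 RPKM. IFI6 was called different between the libraries, with 382 and 286 reads, a log2 ratio of -0.39 ± 0.11 and an adjusted p of 0.0411 (exact binomial test). Over all listed entries instead of expressed ones the adjusted p was 0.0583, and 0.627 with variation beyond counting allowed. Members of this list thus ranged from above the IFI16 level to a few reads.

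**Figure D5:**
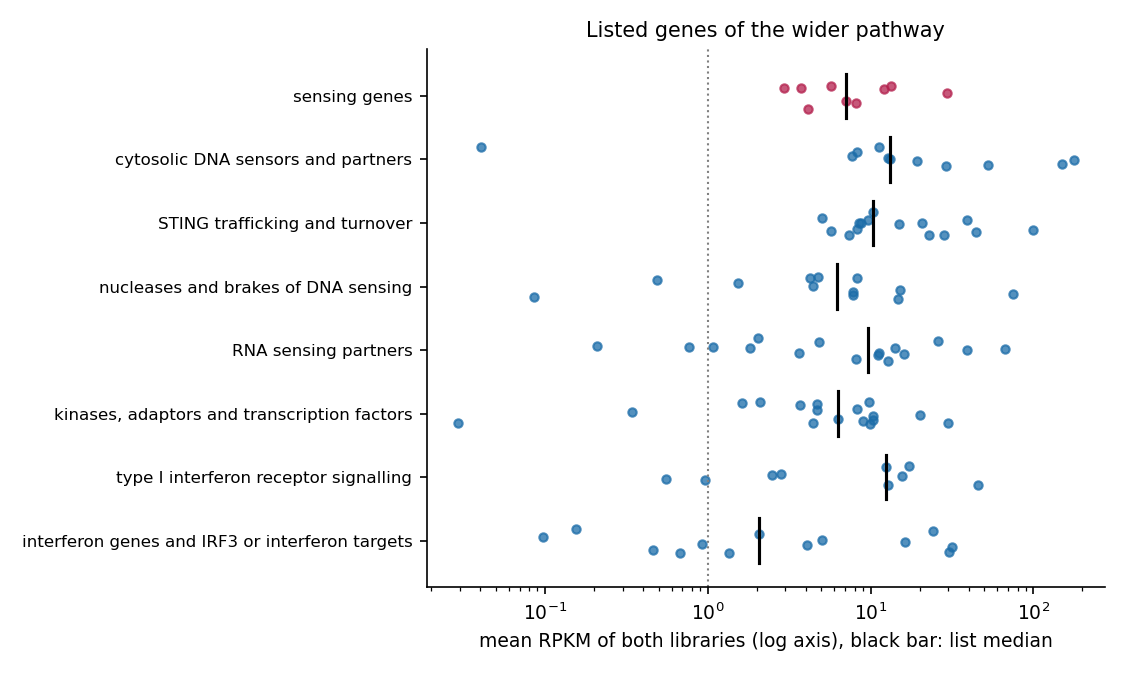
Mean RPKM of both libraries (log axis) for each listed gene of the sensing set (red) and of the 7 wider lists (blue), with the list median as a black bar and 1 RPKM as a dotted line; vertical scatter within a list has no meaning. The interferon and target genes have the lowest median, 2.06 RPKM, and the partners of DNA sensing the highest, 13.1 RPKM.

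The line's labelled origin was checked with marker genes. All 8 osteoblast and mesenchymal markers of the list reached 1 RPKM, from 2.23 to 279.9 RPKM. The list is not exhaustive, and BGLAP, an osteoblast gene outside it, averaged 0.277 RPKM. BGLAP was named after its value was seen. IFI16 and SAMHD1 are abundant in blood cells, and the 4 listed haematopoietic markers, PTPRC, ITGAM, SPI1 and CD14, summed to 0.473 RPKM in replicate 1 and 0.381 RPKM in replicate 2, with none at the level. Epithelial markers passed in 2 of 4 listed cases, summing to 5.22 and 5.38 RPKM, and endothelial markers in 0 of 3. The epithelial ones that passed were EPCAM at 2.28 RPKM and KRT14 at 1.81 RPKM. EPCAM was thus level with ALPL, the lowest osteoblast and mesenchymal marker of the list, at 2.23 RPKM. The read totals behind the RPKM, recovered from the ratio of the columns, were 13227805 and 13020149. They are the totals that the RPKM was scaled to and need not be all reads of the libraries. Around the 10 loci, 30 of the 37 listed protein-coding neighbours of 40 reached 1 RPKM in both libraries, with a median of 6.37 RPKM among those listed. Of all listed protein-coding entries 72.9% reached that level.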

How the data were processed

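Per the file headers, the deposited values are RPKM, with 1 column per library. The submitters' processing notes name Trim Galore, HISAT2 and featureCounts, and the builds hg38 and GRCh38.p13. Not given in the sources used here: versions, annotation, strand use and filters. The deposited table analysed here holds no p-value, count or CPM column, and those given here were computed.

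Symbols with several rows (58 symbols, 194 rows) were left out, and symbols sharing both values were taken once, which left 17912 entries. Reads were recovered from the RPKM: for 100% of genes the ratio of the columns was a ratio of whole numbers (relative tolerance 2e-13), and 1019 genes with equal reads gave the ratio of totals. The remaining whole factor was the one whose length came nearest the exonic length of the gene in GENCODE release 29, matched for 96.4% of symbols. The length obtained was within 10% of it for 90.9% of those and equal for 43.9%, which is partly built in. For the sensing genes it was equal for 4, 34.0% longer for TBK1 and 24.6% longer for STING1. The recovery and the test were run on simulated data that held counting error only and took the annotated lengths as the true ones. That run could not check the whole factor where lengths differ, nor the test under variation beyond counting.

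Expressed means at least 1 RPKM in both libraries. Libraries were scaled by trimmed mean of M values (0.995 for replicate 2) and compared by an exact binomial test with Benjamini-Hochberg adjustment at 0.05. Chi-square per degree of freedom was 1.79. The alternative error model was a beta-binomial on how each gene's reads divide between the libraries, with 1 common dispersion. It took 2.66% variation beyond counting. Counting SEs cover less than the spread between libraries.

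The members and lists were chosen with earlier results of these data known. Genes named were the 10 members, and of each pathway list the 3 highest, the lowest, those not listed and those called between libraries; 1 gene that this rule names is not reported here. Others are said to be named after their values were seen, or stand beside a count of 5 or fewer. Alternatives covered the level, unit, background, pseudocount, scaling, filter, threshold, error model and each library alone. Promoter sequences are RefSeq's on GRCh38.p14. Tests ran with scipy 1.17.1 and tables with pandas 2.3.3 (numpy 2.4.6, Python 3.11.15).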

Additional observations from a re-analysis of the deposited data

How the results depend on the processing

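The count of expressed sensing genes (9) stayed within 1.5 times at 0.5 RPKM, 5 RPKM (6), 1 CPM, 1 TPM and without either replicate. The percentile of their median (63.9) was 59.0 among protein-coding entries, 67.8 in CPM and 58.8 among entries of at least 0.1 RPKM, by construction of the backgrounds for the first and the last. At 5 RPKM the nucleases and brakes numbered 6, the RNA sensing partners 9, the kinases, adaptors and transcription factors 9, the interferon genes and targets 4, the osteoblast markers 5 and the epithelial markers 0. At 1 CPM and at 1 TPM alike the interferon genes and targets numbered 11, the epithelial markers 4 and the endothelial markers 2. These levels are stricter or are passed by more genes (78.1% of entries at 1 CPM and 81.6% at 1 TPM). Under all settings together, 65 of 77 recomputed list counts moved by at most 1.5 times. Of the library comparison, 206 calls became 112 at a threshold of 0.01 and 9 once variation beyond counting was allowed, and the count of sensing genes among them was 0 throughout. Neighbouring pairs told apart (7) numbered 5 in CPM and 6 by longest coding transcript, both chosen after seeing the data, as was leaving out genes with 10% or more of exonic bases shared. The pseudocount changed no direction of a library ratio among the 9 genes. In TPM each sensing gene's value was higher by a common scale, from 13.7 for IFIH1 to 138 for IFI16. No paired analysis between groups was possible because the series has 1 group. Depth limits what can be said of AIM2, IRF7 and CXCL10, which had 1 or 2 reads.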

Other observations

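Exons shared between genes went with low values in the table as a whole. Of the 431 matched entries with over 50% of exonic bases shared with another gene, 34.8% reached 1 RPKM in both libraries, with a median of 0.554 RPKM. Of the other matched entries 69.1% did, with a median of 4.05 RPKM. Both groups hold entries of all gene types, and protein-coding entries were not compared alone. In the pathway lists only IFNAR2, whose 0.554 RPKM equals the median of the 431, and AZI2 had over 50% shared. AZI2, an adaptor of TBK1, was at 3.70 ± 0.526 RPKM. How the counting treated reads on shared exons is not given in the sources used here, and the part of sharing in these levels was not tested.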
